A study of Rattus norvegicus with 6 samples.

Results

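Among the microRNAs (miRNAs) of rat plasma exosomes, a small set is made from inside genes of energy and lipid metabolism, and its 7 mature miRNAs were examined here. They were chosen by name, as every mature miRNA whose name starts with miR-103, miR-107, miR-378a or miR-33. The rule uses names alone, although the set was proposed with earlier results of these data known. They occupied 8 of the 468 rows of the deposited table and made up 7 of its 420 different mature miRNAs. These are miR-103-3p, miR-103-1-5p, miR-107-3p, miR-378a-3p, miR-378a-5p, miR-33-5p and miR-33-3p. Small RNA had been sequenced in 6 libraries of exosomes from the plasma of adult male Sprague Dawley rats of 200 to 250 g. The controls, EXO1 (n = 3), came from rats injected intraperitoneally for 7 days with the solvent alone, and EXO2 (n = 3) from rats injected with 10 mg/kg melatonin, the hormone of the pineal gland, in the same solvent. Rats of both groups therefore received 5% DMSO, and plasma was taken on day 8. The sample labels name PBS as the carrier and centrifugation as the isolation, whereas the methods name saline and a commercial kit. Neither source says whether a library is 1 rat or a pool, so the p-values reflect only how much these libraries vary, which may be technical variation.

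As background, each of these miRNAs is known to lie in an intron of a metabolic gene and can be transcribed together with it. miR-103 and miR-107 come from the pantothenate kinase genes (Pank), whose enzymes carry out the rate-controlling step of coenzyme A synthesis, and in mice they are known to lower the insulin sensitivity of liver and fat. miR-378a comes from Ppargc1b, a coactivator of genes of mitochondrial oxidation, and is abundant in muscle and brown fat. miR-33 comes from Srebf2, the master regulator of cholesterol synthesis, and is known to repress Abca1, the exporter of cellular cholesterol.

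The mature sequences of RefSeq (build GRCr8) matched 6 of the 7 miRNAs, and they are shown to make visible which ones share a seed and how little separates miR-103 from miR-107. Capitals mark the seed, bases 2 to 8 from the 5′ end, which selects most targets.
rno-miR-103-3p: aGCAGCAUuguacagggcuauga
rno-miR-107-3p: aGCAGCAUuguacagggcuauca
rno-miR-378a-3p: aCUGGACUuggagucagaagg
rno-miR-378a-5p: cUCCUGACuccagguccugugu
rno-miR-33-5p: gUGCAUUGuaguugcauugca
rno-miR-33-3p: cAAUGUUUccacagugcauca

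miR-103-3p and miR-107-3p had the same seed and were identical at 22 of 23 bases. The single difference was G22C, counted from the 5′ end with the base of miR-103-3p first, so only 1 base follows it. A read that ends before position 22 carries nothing that tells these miRNAs apart, and the deposited values do not show how such reads were assigned. Their separation is uncertain to that extent. No other measured miRNA with a RefSeq sequence had the seed of any of the 6, among 382 of the 420 with a sequence. miR-378b, a relative of miR-378a by name that the rule leaves out, was also measured. Whether it shares reads with miR-378a-3p was not tested. On GRCr8, miR-107-3p lies at chr1:241750431-241750453 on the minus strand within Pank1, and the miR-103-2 copy of miR-103-3p at chr3:138963278-138963300 on the plus strand within Pank2. The arms of miR-378a lie on the minus strand within Ppargc1b, miR-378a-3p at chr18:57128925-57128945 and miR-378a-5p at chr18:57128962-57128983. Those of miR-33 lie on the plus strand within Srebf2, miR-33-5p at chr7:115593957-115593977 and miR-33-3p at chr7:115593997-115594017. Each of these miRNAs was on the strand of its host gene. miR-103-1-5p is the minor arm of miR-103-1, whose known host is Pank3.

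In EXO1 the libraries held 2279500 to 5868405 miRNA reads, and in EXO2 3033119 to 4999379. The deposited values, called normalized CPM here, are reads divided by a library size that the authors had scaled for composition, and the scaling factor was 0.264 in EXO1 replicate 1 against 0.941 to 1.86 in the other libraries. miRNAs of a list known from muscle took 82.6%, 23.2% and 0.909% of the reads in EXO1 replicates 1, 2 and 3 and 0.739% to 1.51% in EXO2, and those of a list known from red blood cells took 7.87% to 24.0% in EXO1 against 57.7% to 67.9% in EXO2. All 10 erythrocyte miRNAs were read in every library, and of 9 muscle miRNAs, miR-208a-3p and miR-208b-3p were at 0 in EXO1 replicates 1 and 3 and miR-133a-5p in EXO1 replicate 3. A value of 0 allows up to 3 reads, or 1.90 normalized CPM in EXO1 replicate 1 and 0.538 to 0.798 in the others. Reads carry no molecular identifiers, so floors and intervals cover counting error only. EXO2 was compared with EXO1 by limma on log2(normalized CPM + 1), a scale that understates the change of low miRNAs. The fit covered the 410 miRNAs with reads in 2 or more libraries, and all 7 passed this filter. The median log2 fold change of EXO2 against EXO1 over the 410 was -0.56.

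miR-107-3p was higher after melatonin, with no overlap between the groups. It stood at 492, 281 and 443 normalized CPM in EXO1 replicates 1, 2 and 3, from 776, 1298 and 2006 reads, and 810.0, 883 and 1159 in EXO2, from 3659, 4917 and 4357 reads. The means were 405 ± 110.4 in EXO1 against 951 ± 184 in EXO2 (SD, n = 3 each), a ratio of 2.35. The log2 change was 1.25 with a standard error of 0.51 (limma, unadjusted p = 0.0272, adjusted p = 0.333), and 3 of 3 EXO2 libraries were above all of EXO1. It was the only one of the 7 past the thresholds of the methods, that is, a 1.5-fold change together with an unadjusted p under 0.05, where 13.2% of all tested miRNAs were past them (54 of 410). By limma, an adjusted p under 0.05 was reached by none of the 7 and by 0% of the 410. Without adjustment, 1 of the 7 and 54 of the 410 had a p under 0.05, and the fit with each miRNA's own variance gave 1 of the 410 and that with a replicate block 2 at an adjusted p under 0.05, none of them among the 7. miR-107-3p was no longer past the thresholds of the methods when reads were divided by library totals only (unadjusted p = 0.143, limma) or by RLE size factors (unadjusted p = 0.0523, limma), or with the replicate block (unadjusted p = 0.0591, limma). Neither was it without EXO2 replicate 2 (unadjusted p = 0.0702, limma) or without EXO2 replicate 3 (unadjusted p = 0.123, limma).

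miR-103-3p, the same-seed partner, was the more abundant of the pair in all 6 libraries, and its groups overlapped. Its values were 1982, 1568 and 2941 normalized CPM in EXO1, from 3128, 7249 and 13316 reads, and 2607, 3347 and 4177 in EXO2, from 11775, 18646 and 15698 reads. Only EXO1 replicate 3 overlapped with EXO2, where it lay above replicate 1. The means were 2164 ± 704 and 3377 ± 786 (SD, n = 3 each), and the log2 change was 0.66 with a standard error of 0.49 (limma, adjusted p = 0.462). The table lists miR-103-3p in 2 rows, as its sequence comes from more than 1 precursor. These rows differed by 0 to 99 reads in a library, at most 1.05%, and the higher row was used. It ranked between the 25th and the 44th most abundant miRNA of a library, and miR-107-3p between the 61st and the 97th.

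The minor arm miR-103-1-5p was close to the limit of detection, with 0, 3 and 5 reads in EXO1 against 14, 7 and 6 in EXO2. These reads gave 0, 0.649 and 1.10 normalized CPM in EXO1 against 3.10, 1.26 and 1.60 in EXO2. Its EXO2 values were all above its EXO1 values, but the 0 of EXO1 replicate 1 allows up to 1.90, which is above those of EXO2 replicates 2 and 3. A difference was therefore not detectable at this depth (log2 change 0.93 ± 0.99 by limma, change and standard error, adjusted p = 0.590). With miR-107-3p it made 2 of 7 whose EXO2 values were all above those of EXO1, against 11.5% of all tested miRNAs. None of the 7 had all EXO2 values below, against 9.51%.

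**Figure D1:**
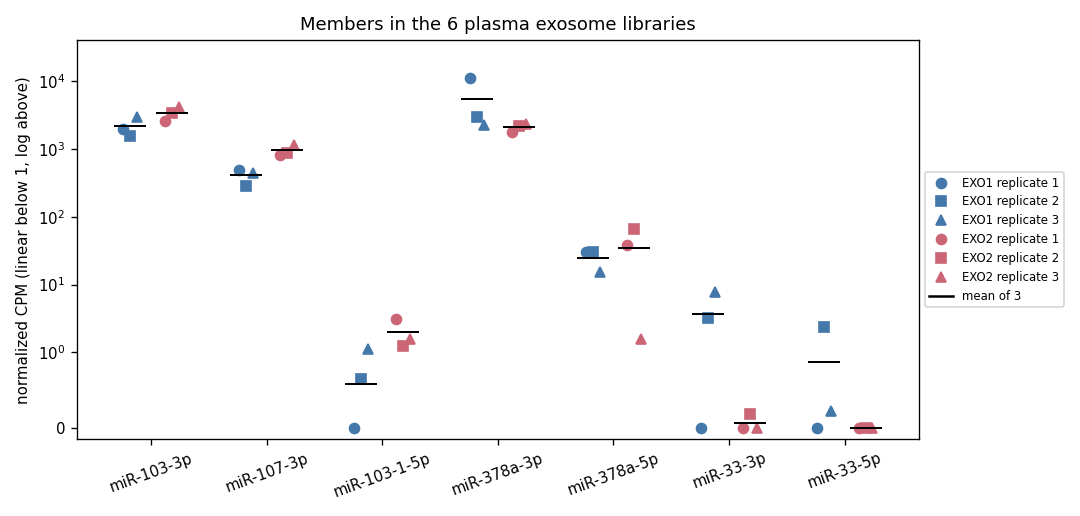
Normalized CPM of the 7 miRNAs in each library (vertical axis, linear below 1 and logarithmic above), with EXO1 in blue, EXO2 in red and a line at the mean of 3 libraries. miR-107-3p was 281 to 492 in EXO1 against 810.0 to 1159 in EXO2, and miR-378a-3p had 1 high value, 11241 in EXO1 replicate 1.

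The balance between miR-103-3p and miR-107-3p was compared within each library, where the scaling of the library has no effect. Each miR-107-3p read was accompanied by 4.03, 5.58 and 6.64 reads of miR-103-3p in EXO1 replicates 1, 2 and 3 and by 3.22, 3.79 and 3.60 in EXO2. Every EXO2 ratio was below every EXO1 ratio, and miR-107-3p made up 13.1% to 19.9% of the reads of the pair in EXO1 against 20.9% to 23.7% in EXO2. By counting error alone (95% intervals), EXO1 replicate 1 at 3.73 to 4.36 overlapped with EXO2 replicate 2 at 3.67 to 3.91, whereas EXO1 replicates 2 and 3 lay at 5.26 or more. The log2 ratio was 2.41 ± 0.37 in EXO1 against 1.82 ± 0.12 in EXO2 (SD, n = 3 each), a difference of -0.59 (exact permutation over libraries, 2-sided, p = 0.1, which is the lowest value possible with 3 in each group). The difference lay between -0.79 and -0.43 when 1 library was left out. The share of the erythrocyte list moved with the groups too, from 7.87%, 24.0% and 11.4% in EXO1 replicates 1, 2 and 3 to 57.7%, 64.5% and 67.9% in those of EXO2, and its part in the ratio was not tested. The part of reads too short to tell the miRNAs apart was not tested either.

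**Figure D2:**
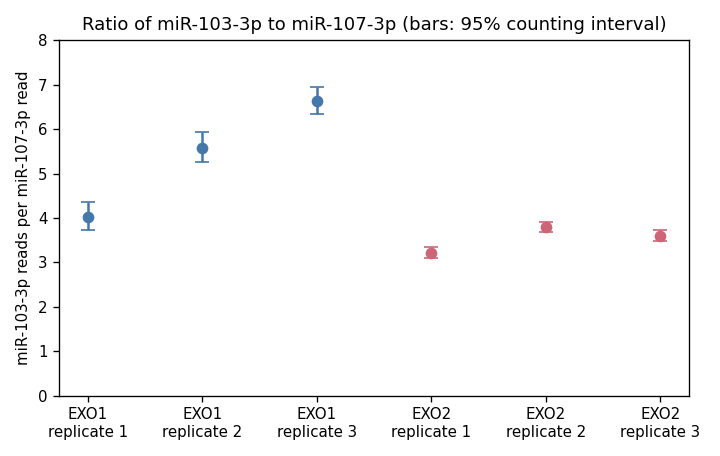
Reads of miR-103-3p per read of miR-107-3p in each library (vertical axis, a ratio starting at 0), EXO1 in blue and EXO2 in red, with bars for the 95% interval of counting error. The EXO2 libraries lay at 3.22 to 3.79, below the EXO1 libraries at 4.03 to 6.64.

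miR-378a-3p, the muscle- and fat-rich product of the Ppargc1b intron, was very high in normalized CPM in a single EXO1 library. It was below miR-103-3p in 4 of the 6 libraries. As a share of all miRNA reads it took 0.302%, 0.588% and 0.358% in EXO1 replicates 1, 2 and 3. In EXO2 this share was 0.235% to 0.262%. Its values were 11241, 2901 and 2233 normalized CPM in EXO1, from 17742, 13411 and 10108 reads, and 1762, 2188 and 2336 in EXO2, from 7961, 12188 and 8779 reads. In normalized CPM, but not as a share of reads, EXO1 replicate 1 stood far above all others. EXO1 replicate 3 lay within the range of EXO2 in normalized CPM. The means were 5458 ± 5019 and 2095 ± 298 (SD, n = 3 each), and the log2 change was -1.005 with a standard error of 0.60 (limma, adjusted p = 0.397). Without EXO1 replicate 1 it was -0.29, and without EXO1 replicate 3 it was -1.46 (limma, unadjusted p = 0.0299, adjusted p = 0.274). miR-378b, outside the rule, had a log2 change of -1.22 with a standard error of 0.63 (limma, adjusted p = 0.369). EXO1 replicate 1 was also the library with the most muscle reads, and 6 of the 9 muscle miRNAs were at their highest there. The other 3, miR-499-5p, miR-208a-3p and miR-208b-3p, were not, and both miR-208 miRNAs were at 0 in it. The summed muscle list was 3070050, 114556 and 5662 normalized CPM in EXO1 against 7337 to 13546 in EXO2, and miR-1b alone made up 3009710 of the first of these. In normalized CPM, EXO1 replicate 3 had less muscle miRNA than any EXO2 library and a miR-378a-3p value within the EXO2 range. EXO1 replicate 2 had more muscle miRNA than any EXO2 library, at 114556, and miR-378a-3p at 2901, above the EXO2 range. The part of muscle miRNAs in the difference was not tested.

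miR-378a-5p, the minor arm of the same hairpin, did not follow miR-378a-3p. It had 29.8, 30.1 and 15.2 normalized CPM in EXO1, from 47, 139 and 69 reads, and 38.1, 65.5 and 1.60 in EXO2, from 172, 365 and 6 reads. EXO2 replicates 1 and 2 were above all EXO1 libraries and EXO2 replicate 3 was below them. The means were 25.03 ± 8.48 and 35.1 ± 32.1 (SD, n = 3 each), higher in EXO2, while the log2 change was -0.40 with a standard error of 1.503 (limma, adjusted p = 0.904) and became 1.03 without EXO2 replicate 3. The reads of the 3p arm per read of the 5p arm were 377, 96.5 and 146 in EXO1 against 46.3, 33.4 and 1463 in EXO2. The last of these rests on 6 reads of the 5p arm, with a 95% counting interval of 657 to 3258, and it did not overlap with the interval of any other library. The log2 arm ratio was 7.45 ± 1.01 in EXO1 against 7.04 ± 3.02 in EXO2 (SD, n = 3 each, difference -0.41, 2-sided exact permutation test, p = 0.9). Without EXO2 replicate 3 the difference was -2.15, whereas it turned to 0.14 without EXO1 replicate 1, 0.34 without EXO2 replicate 1 and 0.57 without EXO2 replicate 2.

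Both arms of miR-33, from the Srebf2 intron, were almost absent from these libraries. miR-33-5p, an arm known to repress Abca1, had 0, 11 and 1 reads in EXO1 against 0 in all 3 EXO2 libraries, or 0, 2.38 and 0.221 normalized CPM in EXO1. Its EXO1 mean of 0.867 ± 1.31 (SD, n = 3) was 1.30 times the floor of 3 reads per EXO2 library. That mean came almost wholly from EXO1 replicate 2. EXO1 replicates 1 and 3 were under 3 reads as EXO2 was, so this value is not a lower bound of the change. miR-33-3p had 0, 15 and 35 reads in EXO1 against 0, 1 and 0 in EXO2, or 0, 3.25 and 7.73 normalized CPM against 0, 0.179 and 0. The ratio of its means, EXO1 over EXO2, was 61.2, with 10.98 to 2415 as its 95% Poisson interval, given the 1 read of EXO2, which covers counting error only. Without EXO1 replicate 3 the ratio was 27.1, and with each EXO2 library set to the floor of 3 reads it was 5.49. EXO1 replicate 1 was at 0 for both arms, as most EXO2 libraries were, so the groups overlapped. Neither arm passed an adjusted p of 0.05 (adjusted p = 0.590 for miR-33-5p and 0.401 for miR-33-3p, limma). In EXO1 replicate 3, 35 reads came from the 3p arm and 1 read from the 5p arm, whereas EXO1 replicate 2 had 15 and 11.

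The order of the libraries depended on what the reads were divided by. In plain RPM, the reads of a miRNA divided by all miRNA reads of its library and multiplied by 1000000, miR-107-3p was still higher in every EXO2 library, at 132, 569 and 711 in EXO1 against 984 to 1206 in EXO2. miR-378a-3p now separated the groups, with 3023, 5883 and 3585 RPM in EXO1 against 2353 to 2625 in EXO2, and EXO1 replicate 1 was the lowest EXO1 library in place of the highest. On this scale 1 of the 7 had all EXO2 values above EXO1, against 8.54% of all tested miRNAs, and 1 had all below, against 7.32%. With the reads outside the erythrocyte and muscle lists as the total, miR-103-3p separated the groups as well. It had 5577, 6024 and 5386 RPM in EXO1 against 9456, 10966 and 13427 in EXO2, and the EXO1 libraries differed from each other by less than on the other scales. On this scale, added after the data had been seen, miR-107-3p had 1384, 1079 and 811 in EXO1 against 2939, 2892 and 3727 in EXO2. miR-103-1-5p separated the groups too, but it was close to the limit of detection, with 0, 3 and 5 reads in EXO1. With it, 3 of the 7 had all EXO2 values above EXO1, against 13.4% of all tested miRNAs. None had all EXO2 values below, against 8.29%. miR-378a-3p overlapped here, with 31633, 11145 and 4089 in EXO1 against 6393 to 7509 in EXO2.

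**Figure D3:**
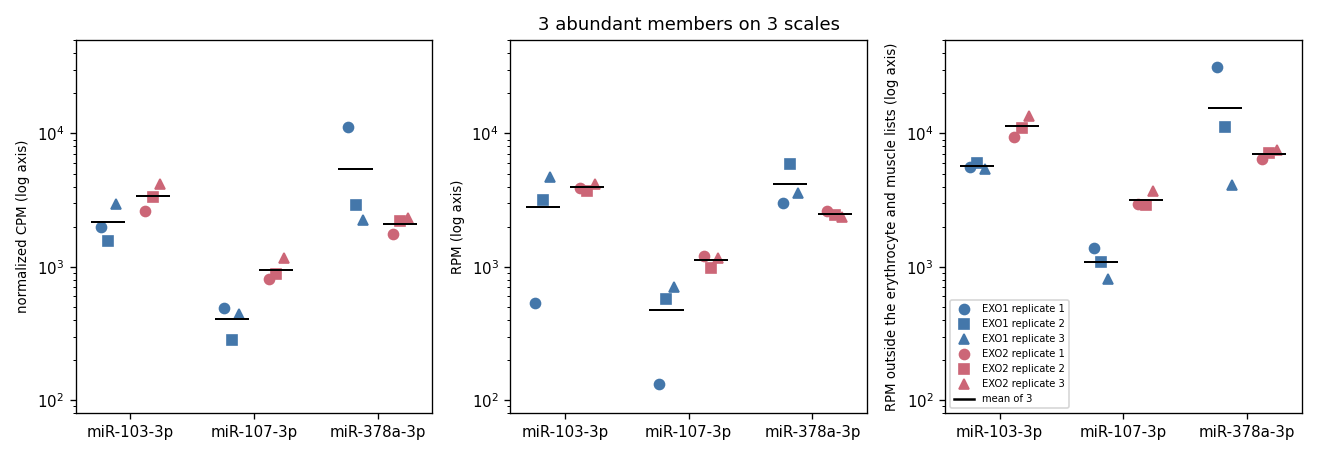
The 3 most abundant of the 7 miRNAs on 3 scales (vertical axes, logarithmic: normalized CPM, RPM, and RPM outside the erythrocyte and muscle lists), EXO1 in blue, EXO2 in red, a line at the mean of 3 libraries. miR-107-3p was higher in every EXO2 library on all 3 scales, whereas EXO1 replicate 1 was the highest library for miR-378a-3p on the outer scales and the third highest in RPM.

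Because the median of all tested miRNAs lay between -0.68 and -0.31 on the log2 scale under 6 scalings, the changes were also taken relative to that median. So taken, the log2 change was 1.73 to 1.97 for miR-107-3p, 1.1 to 1.4 for miR-103-3p and -0.53 to -0.28 for miR-378a-3p. For miR-378a-5p it was 0.10 to 0.30, so its sign turned when set against the other miRNAs. The tested miRNAs include many with few reads, and their median was not matched for abundance. miR-107-3p, miR-103-3p and miR-378a-3p were abundant, with mean log2 values of 9.25, 11.4 and 11.5. The values relative to the median therefore do not compare them with miRNAs of like level.

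The miR-15 and miR-107 group, whose guide strands carry the bases AGCAGC near the 5′ end, had 5 of 9 members with a log2 change above 0 and 4 below, of which 4 were past the fold and p thresholds of the methods and none passed an adjusted p of 0.05 (limma). Within bases 1 to 8 of the mature strand, AGCAGC was present in 8 of the 382 measured miRNAs with a RefSeq sequence (2.09%), all of them on the list of 9 known members. It starts at base 1 in miR-103-3p and miR-107-3p and at base 2 in the others, so the seeds are shifted by 1 base. Those of 3 relatives with higher or lower values are shown for comparison.
rno-miR-15b-5p: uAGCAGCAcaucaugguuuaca
rno-miR-16-5p: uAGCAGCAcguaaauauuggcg
rno-miR-195-5p: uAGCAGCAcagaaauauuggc

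Of the 9, 3 were past these thresholds as higher in EXO2, miR-107-3p, miR-15a-5p and miR-15b-5p, against 5.85% of all tested miRNAs, and 1 as lower, miR-195-5p, against 7.32%. The median log2 fold change was 0.66 over the 9 against -0.56 over all 410, which were not matched to the 9 for abundance. miR-15a-5p had 132, 110.3 and 81.1 normalized CPM in EXO1 against 299, 302 and 394 in EXO2 (log2 change 1.63, SE 0.61, limma adjusted p = 0.333). miR-195-5p, which shares its precursor transcript with miR-497-5p, had 58.3, 114 and 580 in EXO1 against 56.7, 19.4 and 7.72 in EXO2 (log2 change -2.87, SE 1.09, limma adjusted p = 0.333). miR-16-5p, abundant in red blood cells, had 5046, 6570 and 1942 in EXO1 against 6875, 9486 and 11323 in EXO2, without passing the thresholds. miR-15b-5p and miR-16-5p are on the erythrocyte list as well, and the part of red cell miRNAs in these values was not tested.

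**Figure D4:**
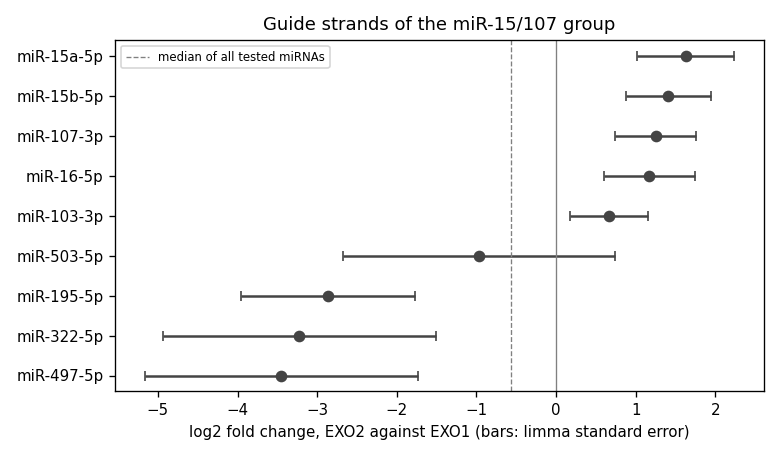
Log2 fold change of EXO2 against EXO1 (horizontal axis) of the 9 guide strands of the miR-15 and miR-107 group, with bars for limma's standard error and a dashed line at the median of all tested miRNAs, -0.56. miR-15a-5p, miR-15b-5p, miR-107-3p, miR-16-5p and miR-103-3p lay above 0, and miR-503-5p, miR-195-5p, miR-322-5p and miR-497-5p below.

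Over the 6 libraries, the miRNAs whose log2 values were most like those of miR-107-3p were miR-341 (Pearson r = 0.98), miR-142-5p (0.95), miR-186-5p (0.93), miR-191a-5p (0.92) and miR-363-3p (0.91), among 409 compared. miR-103-3p came 16th (r = 0.87). miR-142-5p, a miRNA of blood cells, had 1131, 567 and 877 normalized CPM in EXO1 against 1154, 1358 and 1589 in EXO2. miR-363-3p is on the erythrocyte list and miR-191a-5p on a list known from platelets, whereas miR-341 and miR-186-5p are on no list used here. The part of blood cell miRNAs in the level of miR-107-3p was not tested. For miR-103-3p the nearest were miR-532-5p (0.93), miR-30e-3p (0.88), miR-107-3p (0.87), miR-341 (0.85) and miR-362-5p (0.83). These values describe 6 libraries that share their group and their scaling, so they carry no test.

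Of 17 miRNAs known to repress genes of cholesterol and lipid handling, miR-33-5p among them, 3 were past the fold and p thresholds of the methods as higher in EXO2 and 1 as lower, against 5.85% and 7.32% of all tested. Their median log2 fold change was 0.37, against -0.56 over all 410. The 410 include many miRNAs with few reads and were not matched to the 17 for abundance. Past the thresholds, the higher ones were miR-144-3p, miR-128-3p and miR-106b-5p, and the lower one was miR-122-5p, the main miRNA of hepatocytes. For miR-128-3p and miR-122-5p the groups overlapped. miR-106b-5p, known to repress Abca1, had 862, 808 and 525 normalized CPM in EXO1 against 1272, 1545 and 1623 in EXO2 (log2 change 1.04, SE 0.48, limma adjusted p = 0.342). miR-144-3p, an erythroid miRNA that also represses Abca1, had 425 to 2024 in EXO1 against 2529 to 4839 in EXO2. miR-33-5p was thus the least read of the 17, with 12 reads in all EXO1 libraries and 0 in EXO2.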

How the data were processed

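Per the file headers the deposited values are CPM. They were treated as a signal, since the authors had scaled each library for composition and library sums are not equal. Reads had been trimmed to 15 nucleotides or more and annotated by miRDeep2. Tools in the submitters' processing notes are edgeR 3.18.1, cutadapt 1.14 and Bowtie. Genome build and annotation release: not given in the sources used here. Also deposited by the authors, log2 group means were not used.

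In each library 100% of values were whole multiples of 1 step (relative tolerance 1e-06), which gave the reads. The deposited scaling factors equal recomputed TMM factors. A count test was left out, because 5 of the 6 libraries hold too few low values for the rule followed here. Of the 43 mature miRNAs in several rows, the row with the highest sum was used. limma 3.58.1 (R 4.3.3, eBayes with trend) was run on log2(value + 1) with Benjamini-Hochberg adjustment over 410 miRNAs and checked on simulated data. Ratios were compared by exact permutation over libraries. Alternatives were other scalings, pseudocounts of 0.1 and 0.5, no filter on low values, all rows of repeated miRNAs, own variances, a replicate block and leaving out each library. Scaling by reads outside the erythrocyte and muscle lists was added after the data had been seen.

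The miRNAs and lists were chosen with earlier results of these data known. The miRNAs named were the 7 chosen by name, miR-378b, list members past the thresholds or needed beside them, and the 5 nearest in profile to miR-107-3p and to miR-103-3p. Platelet, leukocyte and hepatocyte lists were also counted. Of 6 platelet and 6 leukocyte miRNAs tested, 0 were past the fold and p thresholds in limma (0 at an unadjusted p under 0.05), and of 4 hepatocyte miRNAs 2 were, both lower. Of 10 erythrocyte miRNAs 6 were, all higher, and of 9 muscle miRNAs 2, both lower, against 13.2% of all 410 miRNAs past them (5.85% higher and 7.32% lower). Other software was scipy 1.17.1, pandas 2.3.3 and numpy 2.4.6 in Python 3.11.15.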

Additional observations from a re-analysis of the deposited data

How the results depend on the processing

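The directions of miR-107-3p, miR-103-3p, miR-103-1-5p, miR-378a-3p and both arms of miR-33, and of the ratio of miR-103-3p to miR-107-3p, held under all alternatives run, and none of the 7 miRNAs passed an adjusted p of 0.05 under any. The log2 fold change of miR-107-3p ranged from 1.01 to 1.41 over the fits without 1 library and from 1.05 to 1.57 under the other alternatives (adjusted p = 0.120 to 0.609, limma), and that of miR-378a-3p was -1.46 to -0.29 and -1.21 to -0.69. The count of miRNAs past the fold and p thresholds, 1 of 7, became 0 with library totals only, with RLE size factors and with the replicate block, and lay between 0 and 3 when 1 library was left out. This count was 2 without EXO1 replicate 1 (with miR-33-3p), 3 without EXO1 replicate 3 (with miR-103-3p and miR-378a-3p) and 0 without EXO2 replicate 2 or 3. Over all tested miRNAs, 54 became 31 with library totals only, 103 without EXO1 replicate 1 and 29 without EXO2 replicate 3. The cause was not tested. The log2 fold change of miR-378a-5p lay between -1.31 and 1.03 when 1 library was left out, turning to 1.03 without EXO2 replicate 3. The arm ratio of miR-378a lay between -2.15 and 0.57, turning to 0.14 without EXO1 replicate 1, 0.34 without EXO2 replicate 1 and 0.57 without EXO2 replicate 2. The replicate numbers are shared by the groups, but same-numbered libraries did not deviate together (r = -0.036, 0.055 and -0.12 over 410 miRNAs), so the replicate block, which moved the count over all miRNAs to 41 and gave p = 0.25 for the ratio of miR-103-3p to miR-107-3p (exact permutation of signs, the smallest that 3 pairs allow), is not a paired test. Depth limits miR-33-5p, miR-33-3p and miR-103-1-5p, which had at most 35 reads in a library.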

Other observations

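The profile of miR-378a-3p was closest to miRNAs that were almost unread outside EXO1 replicate 1. These were chosen after their values were seen. miR-6329 (Pearson r = 0.99 over 6 libraries) had 10.8, 0.649 and 0 normalized CPM in EXO1 and 0 to 0.266 in EXO2. miR-299a-5p (r = 0.99), a miRNA of the imprinted Dlk1-Dio3 region, had 14.6, 0.649 and 0 in EXO1 and 0 in all EXO2 libraries. miR-346 (r = 0.99), from an intron of the glutamate receptor gene Grid1, had 19.6, 0.433 and 0 in EXO1 and 0 in EXO2. The arm partner miR-378a-5p ranked 159th of 409 in likeness to miR-378a-3p (r = 0.10). Such correlations rest on the value of EXO1 replicate 1 and carry no test. They were computed on normalized CPM, where miR-378a-3p stood at 11241 in that library. In RPM the same library was the lowest of EXO1 for miR-378a-3p, at 3023, so the likeness depends on the scale.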
